A study of Homo sapiens with 2 samples.

Results

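Transcripts of the transcription factor NRF2, of its inhibitor KEAP1 and of enzymes tied to the supply and use of NADPH were examined in HaCaT cells, an immortalised line of human skin keratinocytes. The genes were given by name: NFE2L2 (which encodes NRF2), KEAP1, NQO1, OSGIN1, PGLS, PGD, TALDO1, TKT and ME1, and each was measured by the probes that name it and no other gene. Of these 9 genes 8 had such a probe, 1 probe each, out of 18449 genes with a probe of their own on the array. The only OSGIN1 probe also names a second locus, AC040169.7-1, and its values are given apart. Of the 8 genes 6 were detected in both groups, while KEAP1 and NQO1 were detected in neither, so that the genes with usable values are NFE2L2, 4 enzymes of the pentose phosphate pathway and ME1.

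The exposed cells reached passage 22 in medium holding 0.5 µg/ml arsenic trioxide, and the passage control reached passage 22 without it. As far as the labels say, each group was a single line of cells. The study describes 4 RNA preparations per group, named technical replicates, with 3 arrays each, or 12 arrays per group, and what was deposited is 1 intensity, 1 error and 1 detection p-value per probe and group. The spread between arrays could not be seen, no test was computed here from the intensities, and exposure cannot be told apart from other differences between the lines. In RNA from whole cultures, fewer cells expressing a gene and less RNA per cell cannot be told apart either.

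NRF2 drives transcription of detoxifying and antioxidant enzymes through antioxidant response elements in their promoters. KEAP1 is the adaptor that brings NRF2 to the CUL3 ubiquitin ligase for degradation, and electrophiles and trivalent arsenic can react with its cysteines, after which NRF2 accumulates. That step acts on the protein, and mRNA arrays do not measure it. In the pentose phosphate pathway PGLS hydrolyses phosphogluconolactone, PGD then makes NADPH from its product, and TKT and TALDO1 rearrange the sugar phosphates without making NADPH. ME1, the cytosolic malic enzyme, makes NADPH from malate, and NADPH is the electron donor for glutathione and thioredoxin reduction and for many aldo-keto reductases.

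Exposed cells had lower intensities in general, with a median log2 ratio of exposed over control of -0.43 across the 9915 probes that were detected (detection p below 0.05) in each group. Ratios are given after subtraction of that median unless they are called uncentred, and their errors are propagated from the deposited errors and are no SD. An intensity is given as its value ± the deposited error. A gene was called at an adjusted p below 0.05, which is the comparison p-value of the authors' deposited table after Benjamini-Hochberg adjustment across 7681 measured genes. The test behind that p-value is not stated, and it covers at most the spread between preparations and arrays of 1 line per group. Keratinocyte markers were detected for 8 of the 10 with a probe, in exposed and in control cells alike, among them KRT5 and TP63. Of markers of other cells with a probe, the exposed cells showed 4 of 6 fibroblast genes and the passage control 3, beside 2 of 4 leukocyte, 1 of 3 melanocyte and 1 of 3 endothelial genes in each group. Detected were COL1A1, LUM, PDGFRB, CD68, CD79A, PMEL and CDH5, and COL1A2 in exposed cells alone, while DCN, COL3A1, PTPRC, CD3E, MLANA, DCT, VWF and KDR were detected in neither group. Summed uncentred intensities, undetected probes included, were lower in exposed cells for every marker list. For keratinocyte genes the sum was 50405.5 in exposed cells, against 66110.8 in passage control cells. In the same order the sums were 497 against 788 for fibroblast genes and 952 against 1247 for leukocyte genes. They were 281 against 384 for melanocyte genes and 252 against 405 for endothelial genes. The part of other cells in the results was not tested.

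Among the 6 genes detected in both groups, PGD rose in exposed cells and no gene was called as lower. PGD, the phosphogluconate dehydrogenase of the oxidative branch, was 1.49-fold higher (log2 ratio 0.58 ± 0.14), and ME1 had the highest ratio, 0.76 ± 0.34, without being called. TALDO1 and TKT had ratios of 0.45 ± 0.09 and 0.37 ± 0.06 at the top of the intensity range. PGLS, at -0.05 ± 0.16, and NFE2L2 itself, at -0.21 ± 0.21, lay within their errors of 0. In all 1 of 6 was called higher, where 3.11% of all measured genes were called higher, and none was called lower, where 2.56% were. The ratio was above 0 for 4 of 6 genes, beside 51% of all measured genes, and the median of the 6 was 0.41, or 0.27 without TALDO1 and TKT. The 4 include TALDO1 and TKT. All 17 genes brighter than 50000 in both groups had ratios above 0, a sign fixed by construction, as described below. Uncentred, 3 of 6 lay above 0, beside 7.26% of all genes detected in both groups, and the median of the 6 was -0.02. TALDO1, at 0.021, is among these 3.

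**Figure D1:**
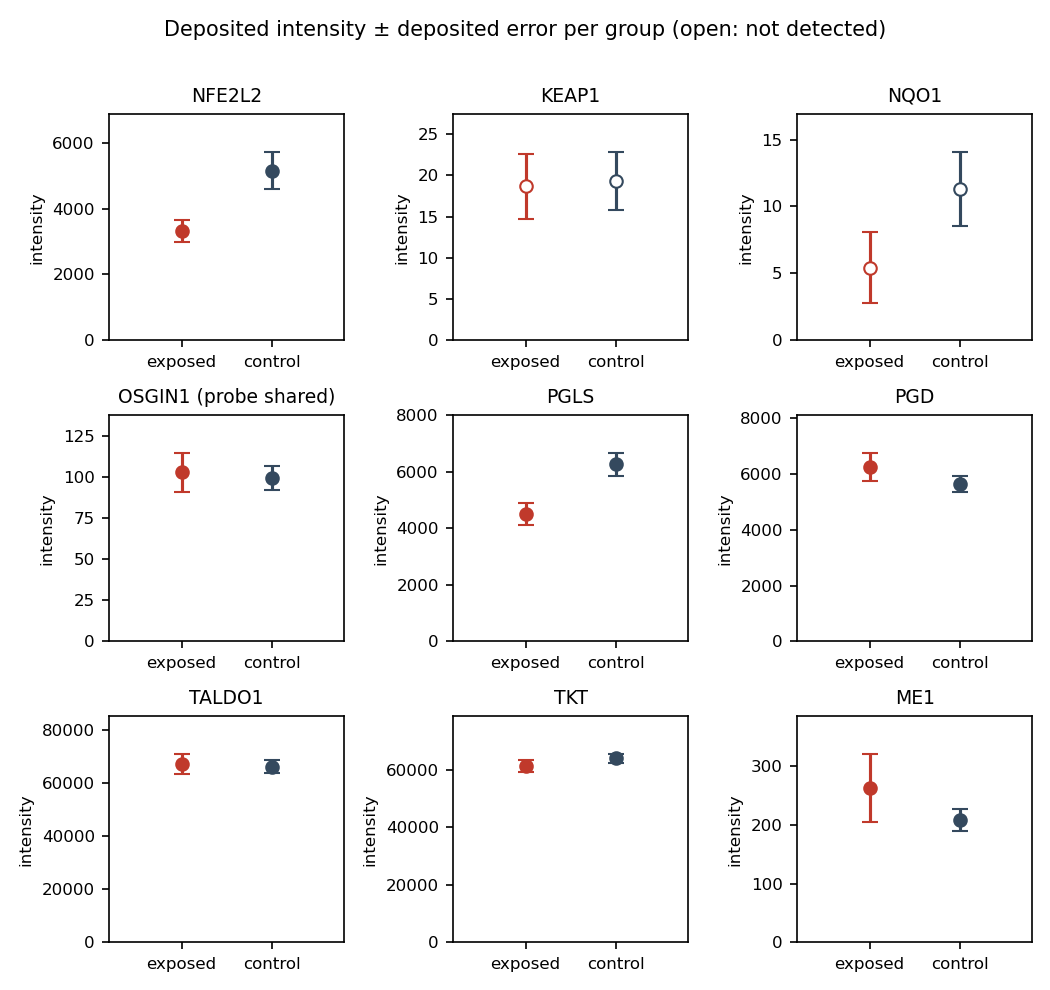
Deposited intensity of each gene on a linear axis from 0, with exposed cells left and passage control cells right and bars for the deposited error. Open points were not detected. The bars of the groups are apart for NFE2L2 and PGLS, both lower in exposed cells, and also for NQO1, whose values lie below the detection floor.

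NFE2L2 (Gene ID 4780, chromosome 2) read 3319 ± 331 in exposed cells, against 5158 ± 568 in passage control cells. The intensities plus or minus their errors did not overlap, and exposed cells were the lower group. This uncentred log2 ratio of -0.64 came close to the shift shared by the array as a whole, and 21.4% of measured genes had a lower ratio than its centred -0.21. The authors' deposited table gives a log2 ratio of -0.21 and a p-value of 0.303, or 0.925 once adjusted here.

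KEAP1 (Gene ID 9817, chromosome 19) read 18.7 ± 3.94 in exposed cells, against 19.3 ± 3.52 in passage control cells, with detection p-values of 0.980 and 0.999. NQO1 (Gene ID 1728, chromosome 16), a quinone reductase and widely used readout of NRF2, read 5.41 ± 2.66 in exposed cells, against 11.3 ± 2.77 in passage control cells, with a detection p-value of 1.000 in both. The dimmest detected probe read 54.4 in exposed cells, against 81.7 in the passage control, so both genes lay under the floor and no ratio is given. An undetected probe does not show that the transcript is missing. Of all 18449 genes with a probe of their own, 10703 (58.0%) were detected in neither group. Of 36 cytosolic ribosomal protein genes with such a probe, transcripts that all growing cells make, 11 (30.6%) were likewise detected in neither group. The same held for FTL, the ferritin light chain gene, at 16.4 in exposed cells, against 22.6 in passage control cells, and for the peroxiredoxin gene PRDX1, at -2.41 in exposed and -0.78 in passage control cells.

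OSGIN1 (Gene ID 29948, chromosome 16), an NRF2-responsive gene first known as a growth inhibitor, has no probe of its own. The probe it shares read 103 ± 11.7 in exposed cells, against 99.4 ± 7.41 in passage control cells, with overlapping errors. Its centred log2 ratio was 0.48 ± 0.20, and that in the authors' deposited table was 0.55, with an unadjusted deposited p-value of 0.0799. Which of the loci on the probe gave the signal cannot be told from these values.

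PGD (Gene ID 5226, chromosome 1) read 6257 ± 500 in exposed cells, against 5654 ± 289 in passage control cells. Exposed cells were the higher group although most genes read lower there, and the intensities plus or minus their errors overlapped between 5757 and 5943. After centring, the ratio exceeded that of 96.4% of measured genes. The authors' deposited table gives a log2 ratio of 0.47 with a p-value of 1.30e-05, which is 0.000650 once adjusted here. Uncentred, the log2 ratio was 0.15 against an error of 0.14, so the size of the rise rests on the scaling between the groups.

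ME1 (Gene ID 4199, chromosome 6) read 264 ± 57.6 in exposed cells, against 209 ± 19.3 in passage control cells. The exposed value was higher, with overlapping errors. Its error in exposed cells was 21.9% of the intensity, where the median measured gene had 10.8%, and 4.94% of measured genes had a larger one. The centred ratio corresponds to 1.70-fold and exceeded that of 98.5% of measured genes. In the authors' deposited table the log2 ratio was 0.63 with a p-value of 0.126, adjusted here to 0.626.

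The promoters of PGD and ME1, the genes with the highest ratios among the 6, are shown here because each holds a match to the core letters of the antioxidant response element, TGACNNNGC, where N is any base. The letters were sought on both strands, so a match can also read GCNNNGTCA. The sequences are those of RefSeq on GRCh38.p14, from 250 bases before the annotated start up to the base before it, with matches in capitals. The PGD stretch is chr1:10398814-10399063 on the plus strand and the ME1 stretch is chr6:83431052-83431301 on the minus strand.
PGD: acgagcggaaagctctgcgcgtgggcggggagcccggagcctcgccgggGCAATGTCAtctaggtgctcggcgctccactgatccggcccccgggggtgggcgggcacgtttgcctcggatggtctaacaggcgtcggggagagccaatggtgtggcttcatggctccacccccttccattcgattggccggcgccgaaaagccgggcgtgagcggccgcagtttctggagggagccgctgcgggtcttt
ME1: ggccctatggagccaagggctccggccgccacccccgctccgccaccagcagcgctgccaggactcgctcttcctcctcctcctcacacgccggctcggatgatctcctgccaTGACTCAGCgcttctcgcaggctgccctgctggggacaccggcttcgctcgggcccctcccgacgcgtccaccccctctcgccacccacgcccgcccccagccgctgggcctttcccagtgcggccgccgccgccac
The PGD match reads TGACATTGC on the strand opposite to the gene and begins 201 bases before the start. The ME1 match TGACTCAGC begins 137 bases before the start and opens with TGACTCA, the AP-1 element, so the letters of the elements overlap there. A further ME1 match, TGACGGTGC on the opposite strand, lies after the start, from base 12 of the transcript. In windows of 300 bases, with 50 bases after the start included, the letters occurred in 3 of the 11 windows of the 9 genes, and in 13.3% of the 35116 windows in the RefSeq table. NFE2L2 and KEAP1 have a pair of windows each. The third gene was KEAP1, with TGACACGGC and TGACTAAGC before the inner of its annotated starts and no match at the outer. NFE2L2, NQO1, OSGIN1, PGLS, TALDO1 and TKT had no match in these windows. A match is a description of letters and not a site of binding.

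**Figure D2:**
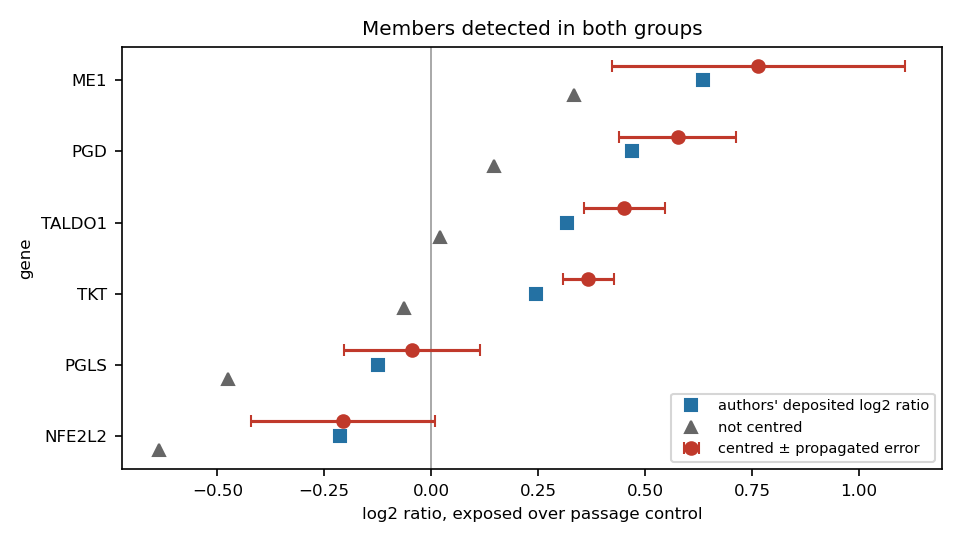
Log2 ratio of exposed over passage control for the 6 genes detected in both groups. Circles with bars are centred ratios with propagated errors, squares are the ratios of the authors' deposited table, and triangles are uncentred. ME1 and PGD lie to the right of 0 on all scales, TKT and TALDO1 stand near 0 when not centred, and NFE2L2 and PGLS lie to the left on all scales.

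PGLS (Gene ID 25796, chromosome 19), the lactonase one step before PGD, read 4505 ± 404 in exposed cells, against 6263 ± 406 in passage control cells. The errors did not overlap and exposed cells read lower, by an uncentred log2 ratio of -0.48 that is near the median shift of the array. The authors' deposited table gives a log2 ratio of -0.13 and a p-value of 0.323, adjusted here to 0.947.

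TALDO1 (Gene ID 6888, chromosome 11), the transaldolase, read 67127 ± 3728 in exposed cells, against 66148 ± 2334 in passage control cells. The control value was the highest of all 30968 probes, and only 4 probes read higher in exposed cells. TKT (Gene ID 7086, chromosome 3), the transketolase, read 61338 ± 2109 in exposed cells, against 64063 ± 1491 in passage control cells. For both genes the errors overlapped. Both lay above 50000 in both groups and are marked as possibly compressed. Of all probes, 6 in exposed cells and 9 in the passage control lay within 1% of the highest value in their group.

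All 17 genes above 50000 in both groups had centred ratios above 0, from 0.05 to 0.46 with a median of 0.38, and an uncentred median of -0.05. Their sign after centring was fixed by construction. No control probe read above 66148, and a fall from there to 50000 is smaller than the shift that centring removes. TALDO1 stood 0.07 above the median of the 17 genes and TKT 0.01 below it, each by less than its error. The 17 include both genes, and ratios at that brightness may be compressed. Nearness to the median therefore cannot show whether either gene departed from the others. In the authors' deposited table TALDO1 had a log2 ratio of 0.32 with a p-value of 0.00399, and TKT one of 0.24 with a p-value of 0.00693. Adjusted here, these were 0.0631 and 0.0971 and neither was called. With genes under the median brightness left out of the adjustment, TALDO1 was called and TKT was not, and with quantile normalization the ratios were -0.0050 for TALDO1 and 0.011 for TKT.

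**Figure D3:**
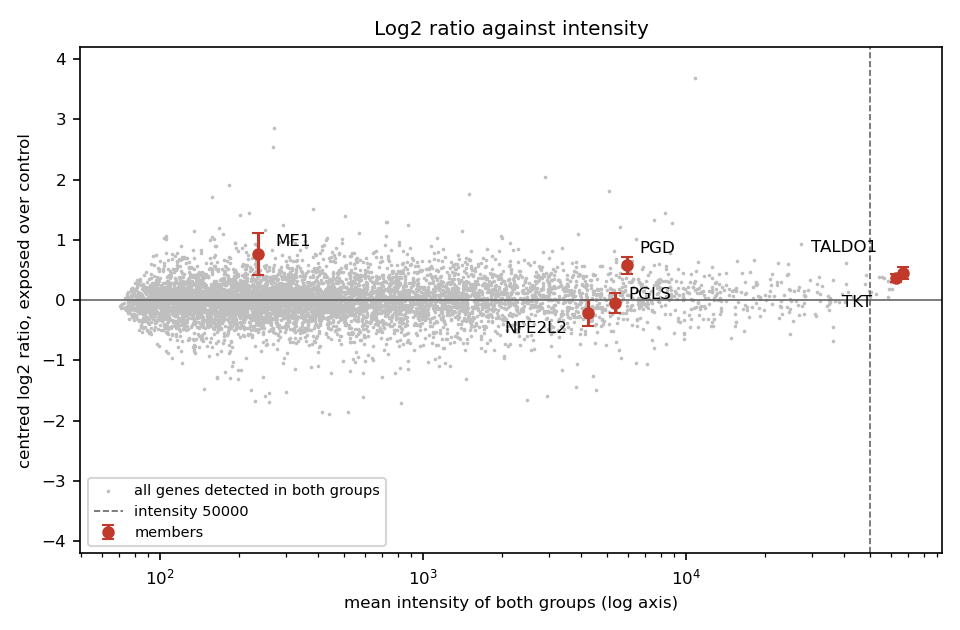
Centred log2 ratio against the mean intensity of both groups (log axis) for all genes detected in both groups (grey), with the 6 named genes in red and bars for the propagated error. TALDO1 and TKT lie right of the dashed line at 50000, and PGD stands above most genes of its brightness. The 17 genes above 50000 in both groups all have ratios above 0 by construction.

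Around these genes, 65 others of the same system were examined in 4 lists, of which 30 were measured. Of the 29 with a deposited p-value 6 rose and none fell, beside 3.11% and 2.56% of all measured genes (5.68% in either direction). The ratio was above 0 for 21 of 30, beside 51% of all measured genes, with a median of 0.21. Of the 30 ratios 4 are bounds for genes detected in exposed cells alone, which lie above 0 by construction. Uncentred, 7 of the 26 detected in both groups were above 0, beside 7.26% of all genes detected in both groups. These 7 include 5 of the 6 that rose, with MAFG as the exception.

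In the rest of the pentose phosphate pathway no gene was called among the 5 measured, and their median ratio was 0.12. RPIA and RPE, which interconvert the pentose phosphates that TKT takes up, had log2 ratios of 0.12 ± 0.18 and 0.27 ± 0.25. RBKS, the ribokinase, had the lowest ratio, -0.65 ± 0.17, with an adjusted deposited p of 0.109. PGM2, a phosphopentomutase, was detected in exposed cells alone, at 73.3 against 75.2 in passage control cells, and its bound of at least 1.21-fold higher exists only after centring.

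Of 5 other measured genes listed for NADPH supply or for pathways tied to it, NADK rose and the other 4 were not called. NADK, the kinase that makes NADP from NAD, read 2614 ± 208 in exposed cells, against 2210 ± 146 in passage control cells. It was 1.59-fold higher, with an adjusted deposited p of 0.0240. MTHFD1L, of mitochondrial folate metabolism, had a ratio of 0.52 ± 0.15, and NADK2, the mitochondrial NAD kinase, one of 0.23 ± 0.29. IDH1, the cytosolic NADP-dependent isocitrate dehydrogenase, had the lowest ratio, -0.53 ± 0.27. IDH2, its mitochondrial relative, had 0.19 ± 0.35 at its brighter probe, where the authors' deposited table has -0.20. Its dimmer probe went the other way and was detected in passage control cells alone. It read 48.7 in exposed cells, against 103 in passage control cells, a bound of -0.49 or lower. The authors' deposited table gives that probe a log2 ratio of -0.48 with an unadjusted p-value of 0.00604.

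Among partners and regulators of NRF2, GSK3B and MAFG rose and the other 4 of 6 measured genes were not called. GSK3B, a kinase that marks NRF2 for KEAP1-independent degradation among many other substrates, read 2411 ± 130 in exposed cells, against 1581 ± 103 in passage control cells. It was 2.05-fold higher (log2 ratio 1.04 ± 0.12, adjusted deposited p 2.06e-10), and the errors did not overlap. MAFG, a small MAF protein that binds DNA together with NRF2, had a log2 ratio of 0.38 ± 0.14 and an adjusted deposited p of 0.0113. Its intensities of 289 in exposed and 300 in passage control cells were lower in exposed cells, with an uncentred ratio of -0.05. MAFK, another small MAF gene, had a ratio of 0.20 ± 0.16, and BACH1, a repressor that competes with NRF2, one of 0.24 ± 0.16. RBX1, the RING subunit of the CUL3 ligase, had the lowest ratio, -0.41 ± 0.22. CUL3 and SQSTM1, which encodes the KEAP1-binding protein p62, were detected in neither group.

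Of 14 measured NADPH users and other NRF2 targets, 3 rose, 10 were not called and HMOX1 had no deposited p-value. AKR1C3, a reductase of steroids and prostaglandins that uses NADPH, was 12.9-fold higher at an intensity of 19499 in exposed cells, against 2042 in passage control cells, and probes of the AKR1C family can share targets. CES1, a carboxylesterase, was 1.60-fold higher with an adjusted deposited p of 0.0175, and ABCC3, an exporter of conjugates, was 1.56-fold higher with 2.58e-05. HMOX1, heme oxygenase, read 107 in exposed cells against 17.8 in passage control cells, where it was not detected, and was at least 1.77-fold higher. AKR1C2 and GCLM, the modifier subunit of glutamate-cysteine ligase, were also detected in exposed cells alone. Set against the detection floor after centring, AKR1C2 was at least 2.64-fold and GCLM at least 1.23-fold higher, GCLM only after centring. The authors' deposited table has a log2 ratio of 0.96 for AKR1C2, below that bound, with an adjusted p of 0.450, and one of 0.51 with an adjusted p of 0.999 for GCLM. ALDH3A1, an aldehyde dehydrogenase, had the lowest ratio at -0.73 ± 0.46. For the thioredoxin gene TXN the probes disagreed: the brighter had a ratio of 0.08 ± 0.27, and the dimmer, at 349 in exposed and 264 in passage control cells, one of 0.84 ± 0.09. The authors' deposited table gives the dimmer probe a log2 ratio of 0.81 with an unadjusted p-value of 3.10e-13. With the smallest deposited p-value over the probes of each gene, TXN was called as well, beside 464 of 7700 genes (6.03%).

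**Figure D4:**
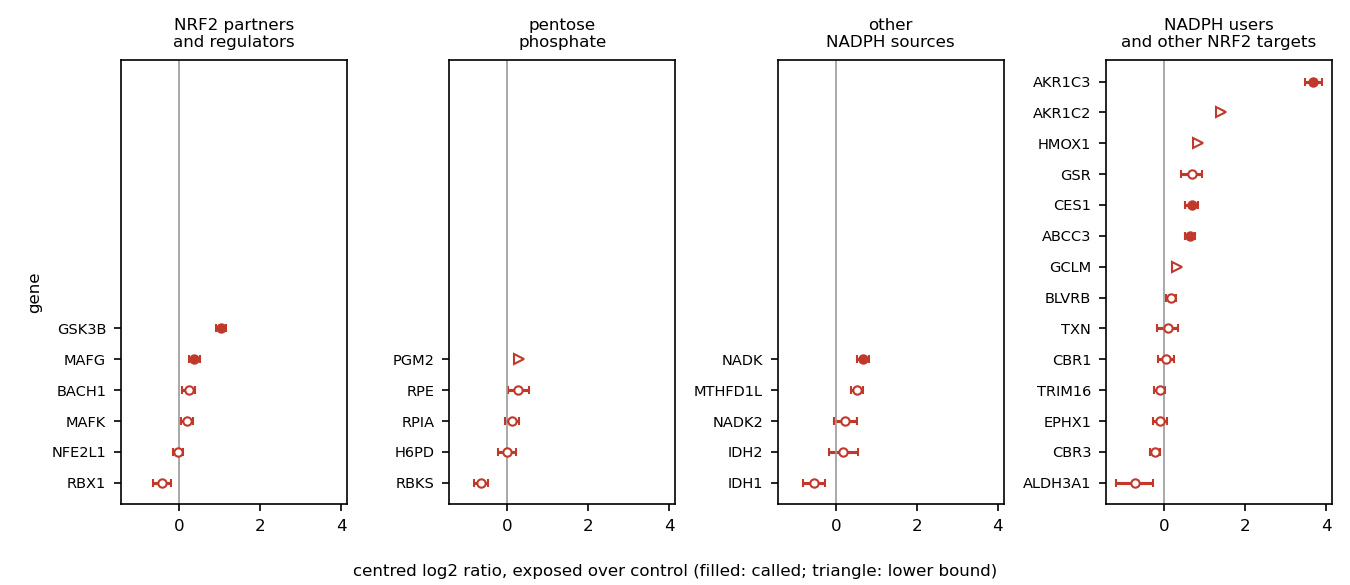
Centred log2 ratios of the 30 measured genes of the 4 lists, with propagated errors. Filled circles mark the 6 called genes, all to the right of 0 (MAFG only after centring), open circles were not called, and triangles are lower bounds for genes detected in exposed cells alone. AKR1C3 has the highest ratio, 3.68, and ALDH3A1 the lowest, -0.73.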

How the data were processed

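Total RNA was amplified with amino-allyl UTP and labelled with Cy5, per the labels' protocols. The authors deposited a normalized, linear intensity and its error for every probe in each group. Scanner, background correction, software and genome build were not given in the sources used here. The deposited detection p-value and the deposited p-value of the comparison come with no named test. The deposited log2 ratio exceeds the ratio of the deposited intensities by a median of 0.42. The series' value table held the same intensities (largest difference 5.00e-07).

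Computed here were the log2 ratio of intensities, centred on the median of probes detected in each group, its propagated error, and the Benjamini-Hochberg adjustment. The brightest probe stood for a gene. Probes naming several symbols (2203) or none (5830) were left out, and symbols were brought up to date by gene identifier from RefSeq (GRCh38.p14, 19800 probes matched). Where only the group brighter after centring was detected, the ratio is a bound against the dimmest detected probe of the other. In all 7691 genes were measured, 7243 of them in both groups. The number of arrays limits the precision, and the median error of a log2 ratio was 0.21.

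The genes, lists and alternatives were chosen with earlier results of these data known. All 9 genes are named, and of the lists the called genes, those detected in 1 group, RPIA, RPE and the highest and lowest ratios. FTL, PRDX1, CUL3, SQSTM1, MAFK, BACH1, NADK2, IDH2, TXN, MTHFD1L and the genes on shared probes are named outside that rule, after their values were seen. On the lists, 1 gene was left out of all counts and is not reported here. Reading of ratios and adjustment was tested on simulated data. Python 3.11.15, numpy 2.4.6 and pandas 2.3.3 were used.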

Additional observations from a re-analysis of the deposited data

How the results depend on the processing

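No paired analysis was possible because each group has 1 deposited value per probe, and for the same reason no replicate could be left out. Of 65 values recomputed under other settings, 51 stayed within the error of the ratio or within 1.5 times the count and 14 moved. Some of the 51 could not have moved. Each of the 6 genes has 1 probe, so the 7 values from a mean over the probes of a gene were fixed. Leaving out genes under the median brightness likewise changes no ratio of the genes that stay. The tally is therefore no measure of how stable the results are. PGD, the only called gene among the 6, stayed above 0, while the uncalled TALDO1 and TKT each lay below 0 in 1 setting given next. Of the called genes of the lists, MAFG was below 0 without centring (-0.05). Without centring the log2 ratios were -0.64 for NFE2L2, -0.48 for PGLS, 0.15 for PGD, 0.021 for TALDO1, -0.063 for TKT and 0.33 for ME1, each lower by the median that centring subtracts. Quantile normalization gave -0.0050 for TALDO1 and 0.011 for TKT, centring on 500 probes of like intensity gave 0.28 for TKT, and the authors' deposited table has 0.32 for TALDO1 and 0.24 for TKT; the cause was not tested. PGD alone was called, and an unadjusted p below 0.05 gave 3 of the 6 genes (PGD, TALDO1 and TKT), beside 13.6% of all genes with a p-value (1042). A limit of 1.5-fold gave 0 of the 6, with PGD just under it at 1.49-fold, beside 2.93% of all genes (225). With the adjustment over the 3845 genes brighter than the median, which leave out ME1, 2 of 5 were called (PGD and TALDO1), beside 10.3% of those genes (397). Of the 436 called genes 54.8% were higher in exposed cells, or 44.5% without centring. Signal near the detection floor limits KEAP1 and NQO1, and signal near the top of the range limits TALDO1 and TKT.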

Other observations

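Several genes of NADPH supply are read by probes that also name another locus, and their values belong in no comparison above. The probe of ME2, the mitochondrial malic enzyme, and RP11-460C6.1 read 1615 ± 158 in exposed cells, against 1498 ± 93.9 in passage control cells. Its centred log2 ratio was 0.54 ± 0.17, beside 0.76 ± 0.34 for ME1. The probe of MTHFD2, of mitochondrial folate metabolism, and AC004894.2 had a ratio of 0.66 ± 0.20, and that of MTHFD1, the cytosolic enzyme, and RP11-1A15.2 one of 0.34 ± 0.19. A probe that names MTHFD1 alone was detected in neither group, at -1.42 in exposed and -4.50 in passage control cells. A probe of the glutamate dehydrogenase genes GLUD1 and GLUD2 had 0.15 ± 0.11, and a dimmer one that also names GLUDP5 had 0.37 ± 0.20.

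NFE2L3, which encodes a relative of NRF2, shares its probe with C17orf57 and AC090377.15-1. That probe read 5343 ± 294 in exposed cells, against 4640 ± 357 in passage control cells, a centred ratio of 0.63 ± 0.14. The ratio in the authors' deposited table was 0.56, with an unadjusted p-value of 0.000459. A probe of the thioredoxin reductase gene TXNRD1 that names 11 loci had a ratio of -0.03 ± 0.20. The probe that names TXNRD1 alone was detected in neither group, at 28.9 in exposed and 31.1 in passage control cells.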
